A study of Mus musculus with 6 samples.

Results

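The proteasome is the multi-subunit protease that degrades proteins tagged with ubiquitin. Its genes were followed here in CD8+ T cells that were taken from mouse spleen and activated. There were 3 libraries of cells given vehicle and 3 of cells given blebbistatin at 2 µM, each for 24 h. Blebbistatin is a small molecule that blocks non-muscle myosin II by inhibiting its ATPase. The members were the genes of the deposited tables whose symbol starts with Psma to Psmg and a number, without the immunoproteasome subunits Psmb8, Psmb9 and Psmb10 and without pseudogene names. This gave 47 of 47729 genes. Of these, 45 had a mean of at least 1 TPM (a transcript level scaled to the library total and to transcript length) and were tested among 13372 genes in all. The vehicle libraries carry the tag pbs, and nothing further on the nature of the vehicle is given. The strain, age and sex of the mice, the way the cells were activated and the origin of the replicates are not given in the labels. What a p-value measures here is thus only the scatter of these 6 libraries, possibly a technical one.

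A proteasome consists of a barrel-shaped core particle with alpha rings outside and beta rings inside, closed by regulatory caps. The beta rings carry the proteolytic sites, made by Psmb5, Psmb6 and Psmb7. In the cap, a base of ATPases (the Psmc genes) unfolds substrates, and a lid of Psmd subunits removes ubiquitin. Chaperones assemble both parts, and other activators can replace the cap. In lymphocytes interferon gamma induces Psmb8, Psmb9 and Psmb10, which replace the proteolytic subunits, and the PA28 activator genes Psme1 and Psme2, which favours the making of peptides for MHC class I. When proteasome activity falls short, the transcription factor NRF1 (gene Nfe2l1) raises the subunit genes together through antioxidant response elements in their promoters.

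From the deposited coverage, and assuming 300 bases per fragment, each library holds about 18500000 to 19900000 fragments, with overlap between the groups. Between pairs of libraries the Pearson correlation across genes was 0.990 to 0.991 within vehicle, 0.983 to 0.989 within blebbistatin and 0.978 to 0.988 across treatments. The T cell markers Cd3e, Cd3d, Cd8a, Cd8b1, Thy1 and Trac summed to 3625 to 3668 TPM with vehicle and 3462 to 3558 TPM with blebbistatin, and Thy1 alone of these 6 passed the test below, as lower. The defining myeloid gene Csf1r averaged below 0.3 TPM in both groups. Cst3, the only gene of the myeloid list tested, averaged 83.7 TPM with vehicle and 71.6 TPM with blebbistatin. Il17a of the CD4 list was at 0 in all 6 libraries. The 3 tested genes of that list, Zbtb7b, Il4 and Foxp3, averaged 13.7, 2.02 and 1.48 TPM with vehicle. With blebbistatin they averaged 14.8, 2.68 and 1.23 TPM. The 6 platelet markers summed to 49.3 to 58.5 TPM with vehicle and 109 to 128 TPM with blebbistatin, and 4 of the 5 tested passed as higher, while the myeloid, NK and CD4 lists had 0 members past the threshold. Of the 9 B cell markers, 2 of 5 tested passed as higher, H2-Eb1 and Igkc. The list summed to 527 to 546 TPM with vehicle and 528 to 558 TPM with blebbistatin. Most of this sum was Ighm, at a mean of 489 TPM over the 6 libraries, so it says little about the other markers. Ighm had a log2 fold change (defined below) of -0.066. Those of H2-Eb1, H2-Aa, Igkc and Cd79b were 1.18, 0.90, 0.80 and 0.33. The part of these cells in the values below was not tested. In bulk samples, fewer cells of a type and less RNA per cell cannot be told apart.

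No proteasome gene passed the test in either direction. By limma with Benjamini-Hochberg adjustment over all genes, 0 of 45 members were higher and 0 lower at an adjusted p under 0.05, where 1.82% of all tested genes passed, 1.4% as higher and 0.426% as lower. At an unadjusted p under 0.05, 2 members were higher (Psme2b and Psme2) and 5 lower (Psme3, Psmd6, Psmb4, Psmd7 and Psmc3), or 7 of 45, beside 22.9% of all tested genes (12.9% higher and 9.99% lower). The groups did not overlap, here called apart, in 13 of 45 members, 5 higher and 8 lower, beside 31.0% of all tested genes (18.0% higher and 13.0% lower). The log2 fold changes, on the log2(TPM + 1) scale with blebbistatin over vehicle, ran from -0.55 for Psmg4 to 0.41 for Psme2b, with 22 above 0 and 23 below. Their median was -0.0018, beside 0.027 over all tested genes. The median absolute change was 0.086 for members and 0.14 for all tested genes. The 95% interval of the change, unadjusted for the number of genes, stayed within 1.5-fold in both directions for 41 of 45 members, beside 73.3% of all tested genes. It reached beyond 1.5-fold for Psmg4, Psmd9, Psmd3 and Psme2b.

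**Figure D1:**
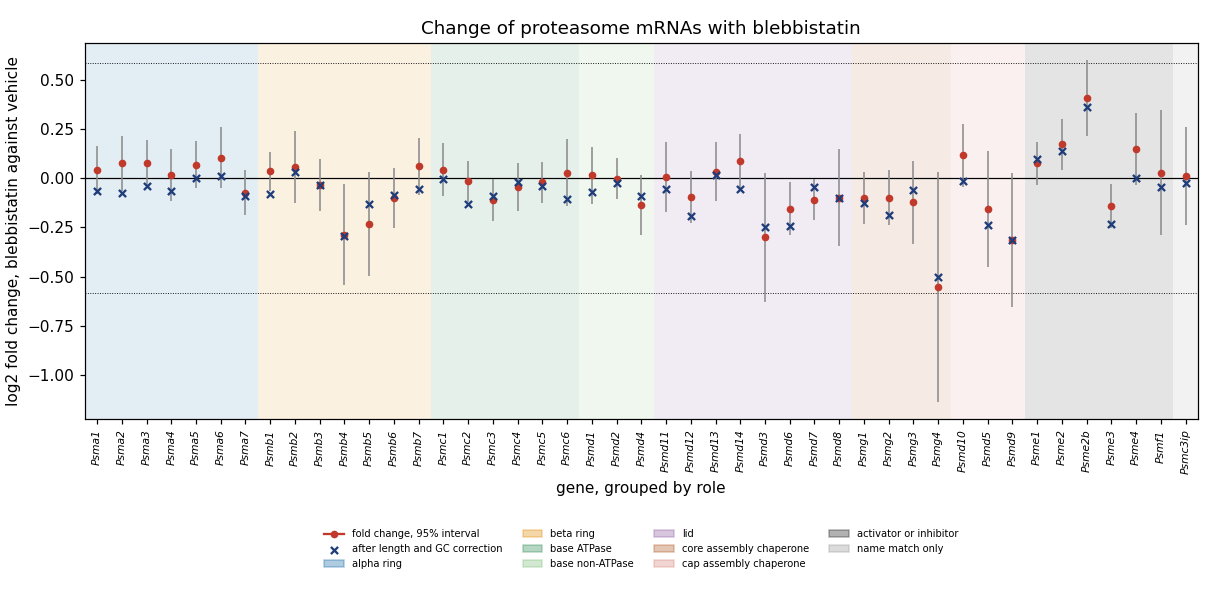
Log2 fold change of the 45 tested proteasome genes, blebbistatin against vehicle, on the log2(TPM + 1) scale, ordered by role (shaded bands). Red points with bars are the fold change and its 95% interval by limma with 3 libraries a group, crosses are the values corrected for length and base composition, and dotted lines mark 1.5-fold. Points run from -0.55 for Psmg4 to 0.41 for Psme2b, and most lie near 0.

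As a whole the 47 genes held 1.00%, 0.991% and 0.989% of all TPM in vehicle 1, 2 and 3 and 0.964%, 0.976% and 0.994% in blebbistatin 1, 2 and 3. The ranges overlapped through blebbistatin 3. Members were also steady among replicates. The median SD of log2(TPM + 1) was 0.040 among vehicle libraries and 0.090 among blebbistatin libraries, while over all tested genes it was 0.089 and 0.13. Members also stood at a higher level than most genes, with a median of 205 TPM against 19.2 TPM, so they rest on more reads. The lowest count behind a tested member was an implied 116 fragments, for Psme2b.

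The promoters of members that carry the antioxidant response element core, through which NRF1 acts, are shown for the proteolytic subunit genes Psmb5 and Psmb6 and for the activator gene Psme4, and that of Psmg4 is shown because it had the largest fold difference in the set. Each runs from 250 bases before to 50 bases after the start of transcription in RefSeq on GRCm38.p6, written 5′ to 3′ on the strand of the gene. Capitals mark matches to TGACNNNGC on either strand, and Psmg4 holds none.
Psmb5 (chr14:54617946-54618245, minus strand): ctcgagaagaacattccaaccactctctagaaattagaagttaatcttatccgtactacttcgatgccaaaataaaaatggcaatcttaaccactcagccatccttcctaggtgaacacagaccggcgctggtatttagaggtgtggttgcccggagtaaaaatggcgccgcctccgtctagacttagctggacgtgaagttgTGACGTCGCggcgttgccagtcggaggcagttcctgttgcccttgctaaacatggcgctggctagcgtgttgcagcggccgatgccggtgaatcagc
Psmb6 (chr11:70525107-70525406, plus strand): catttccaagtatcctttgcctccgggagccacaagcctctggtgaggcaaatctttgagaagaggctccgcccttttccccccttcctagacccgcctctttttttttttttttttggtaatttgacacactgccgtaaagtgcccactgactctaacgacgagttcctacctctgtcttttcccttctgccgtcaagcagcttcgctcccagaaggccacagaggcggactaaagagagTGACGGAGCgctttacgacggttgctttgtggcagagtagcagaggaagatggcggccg
Psme4 (chr11:30771525-30771824, plus strand): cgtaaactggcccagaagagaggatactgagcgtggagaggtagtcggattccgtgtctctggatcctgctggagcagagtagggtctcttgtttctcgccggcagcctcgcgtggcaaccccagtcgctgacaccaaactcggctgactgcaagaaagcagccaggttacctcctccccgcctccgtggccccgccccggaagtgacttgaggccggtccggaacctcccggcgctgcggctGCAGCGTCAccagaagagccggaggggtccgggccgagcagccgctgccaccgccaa
Psmg4 (chr13:34162714-34163013, plus strand): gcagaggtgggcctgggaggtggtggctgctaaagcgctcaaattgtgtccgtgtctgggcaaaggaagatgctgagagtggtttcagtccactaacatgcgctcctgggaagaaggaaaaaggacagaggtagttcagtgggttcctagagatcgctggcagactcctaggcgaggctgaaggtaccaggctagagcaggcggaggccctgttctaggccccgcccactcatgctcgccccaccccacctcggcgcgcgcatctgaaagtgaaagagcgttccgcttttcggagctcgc
Promoter windows were found for 39 of the 47 members. The letters TGACNNNGC, searched on both strands, occurred in 6 of them (15.4%), in 14.0% of 27025 genes with a window and in 17.1% of 8804 tested genes with one. Besides the 3 shown these were Psmc6, Psmd12 and Psmd9, and the log2 fold changes of the 6 ran from -0.31 to 0.15. Of the other 7 motifs searched, that of ETS factors, CCGGAAG, was in 15 of 39 (38.5%) and in 21.9% of tested genes. An interferon-stimulated response element core was in 5 of 39 (12.8%: Psmb3, Psmd4, Psmd9, Psme1 and Psmg4) and in 3.83% of tested genes. The CCAAT box CCAAT was in 35.9% of member windows (43.3% of tested genes), the GC box GGGCGG in 56.4% (69.2%), the E box CACGTG in 7.69% (12.2%), the STAT motif TTCNNNGAA in 5.13% (8.48%) and the ZNF143 motif in 5.13% (5.22%). The motifs were searched on both strands, and matches of different motifs may overlap. These are descriptions of the letters, and no test was made.

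The alpha ring, whose subunits gate the entrance of the core, was nearly level between groups. Its 7 mRNAs summed to 2329, 2329 and 2258 TPM in vehicle 1, 2 and 3 and to 2472, 2286 and 2357 TPM in blebbistatin 1, 2 and 3. The groups overlapped and blebbistatin 1 was the highest library. Psma2, the member at the highest level, stood at 515, 524 and 506 TPM with vehicle and 586, 511 and 535 TPM with blebbistatin. Psma6, with the largest change of the ring, stood at 301, 295 and 280.4 TPM with vehicle and 336, 289.7 and 318 TPM with blebbistatin (log2 fold change 0.10 with an SE of 0.066, limma adjusted p = 0.371). In both genes blebbistatin 2 lay inside the vehicle range and blebbistatin 1 above it. The other fold changes ran from -0.072 for Psma7 to 0.077 for Psma3, whose groups did not overlap although the difference was small, with 128 to 136 TPM against 137 to 143 TPM. Psma3 was also the scarcest of the 14 core mRNAs, at a mean of 136 TPM over the 6 libraries against 529.7 TPM for Psma2, although the subunits of a core are present in equal copies. Part of the Psma3 sequence is repeated elsewhere, since 21.3% of its windows of 75 bases occur in the same letters in transcripts of other genes. The corresponding share was 39.8% for Psma5 and 12.9% for Psma4, so the level of these 3 genes is uncertain, by an amount that was not tested.

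The beta ring had the larger spread among the core subunits. Its 7 mRNAs summed to 2617, 2593 and 2633 TPM with vehicle and to 2302, 2583 and 2584 TPM with blebbistatin, so that blebbistatin 1 stood apart and the other 2 lay just below the vehicle range. Psmb4, a structural subunit whose tail holds the beta rings together, stood at 462, 451 and 445 TPM with vehicle and 311, 426 and 386 TPM with blebbistatin. All 3 blebbistatin values were below all vehicle values, and blebbistatin 1 was far below the others (log2 fold change -0.29 with an SE of 0.11, limma adjusted p = 0.184). Psmb5, the subunit with chymotrypsin-like activity and the main target of proteasome inhibitor drugs, stood at 370.1, 381 and 372 TPM with vehicle and 266, 370.2 and 328 TPM with blebbistatin. Here blebbistatin 2 was level with vehicle, and the difference rests on blebbistatin 1 and 3 (log2 fold change -0.23 with an SE of 0.11, limma adjusted p = 0.26). Of the Psmb5 windows, 40.0% occur in transcripts of other genes, among them Gm3375, and of the Psmb3 windows 33.1%. Psmb6, the subunit with caspase-like activity, stood at 348, 329.7 and 337 TPM with vehicle and 289, 324 and 335 TPM with blebbistatin, and its groups overlapped (log2 fold change -0.10). Psmb7, with trypsin-like activity, stood at 310.4, 296 and 293 TPM with vehicle and 326, 289 and 324 TPM with blebbistatin, also with overlap (log2 fold change 0.061). Psmb1 had the highest mean of the beta subunits over the 6 libraries, 420.2 TPM against 413 TPM for Psmb4. In each vehicle library Psmb4 was the higher of these. Psmb1 stood at 407, 418 and 420.3 TPM with vehicle and 424, 419 and 433 TPM with blebbistatin. Psmb2 and Psmb3 had log2 fold changes of 0.059 and -0.033. All 14 core members kept a 95% interval within 1.5-fold, with a median of 0.040. The ratio of the alpha sum to the beta sum was 0.890, 0.898 and 0.857 with vehicle and 1.07, 0.885 and 0.912 with blebbistatin, so blebbistatin 1 alone placed alpha above beta. In GRCm38 Psmb4 lies on chromosome 3, 94884093 to 94886961, and Psmb5 on chromosome 14, 54614119 to 54618022, both protein-coding.

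**Figure D2:**
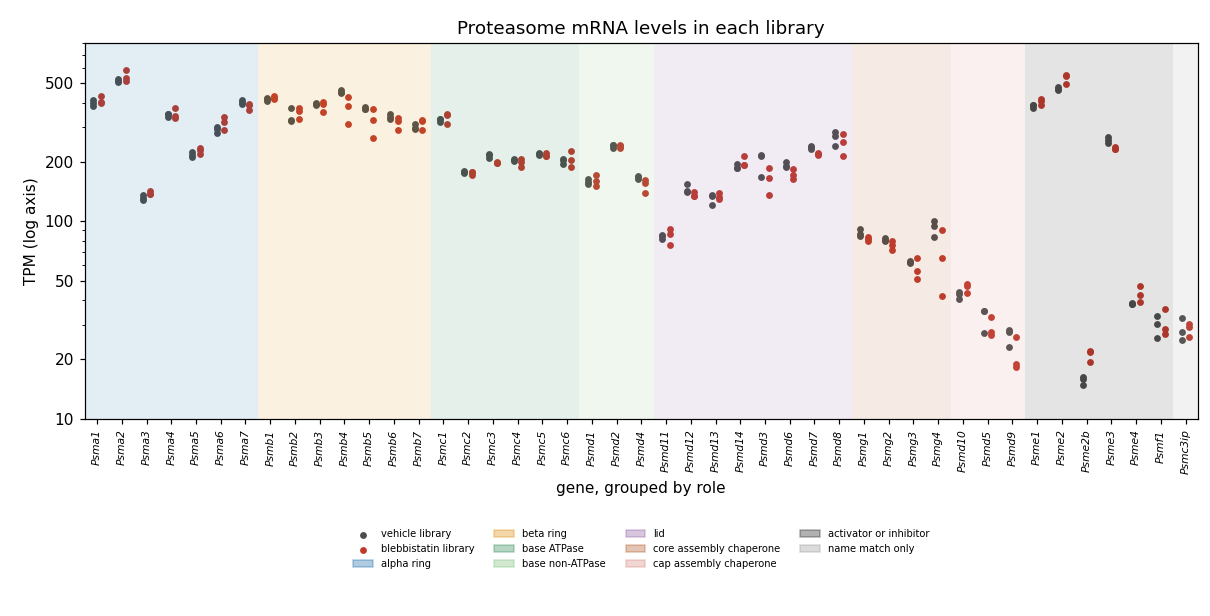
TPM of the 45 tested proteasome genes in each of the 6 libraries, on a log axis, ordered by role (shaded bands), with vehicle libraries in grey and blebbistatin libraries in red. The core subunits stand between 136 and 529.7 TPM on average, the chaperones below all core subunits, and the red and grey points of most genes overlap.

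Core subunits restricted to other tissues were nearly silent. Psma8, the alpha subunit of testis, averaged 0.204 TPM with vehicle and 0.201 TPM with blebbistatin. Psmb11, the beta subunit of thymic epithelium, was listed at 0 in the 3 vehicle libraries and in blebbistatin 3 and reached 0.037 TPM at most. Both fell below the minimum level and were not tested.

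The immunoproteasome subunits, left out of the set, differed by gene from the proteolytic subunits they replace. Over the 6 libraries Psmb8 averaged 498 TPM against 348 TPM for Psmb5, Psmb9 225 TPM against 327 TPM for Psmb6, and Psmb10 161 TPM against 306 TPM for Psmb7. Psmb8 had 534, 544 and 517 TPM with vehicle and 409, 509.7 and 473 TPM with blebbistatin, Psmb9 224, 231 and 219 TPM with vehicle and 194, 239.9 and 241 TPM with blebbistatin and Psmb10 182, 169.8 and 169 TPM with vehicle and 126, 165 and 156 TPM with blebbistatin. Their log2 fold changes were -0.20, -0.0032 and -0.23, with adjusted p of 0.2, 0.988 and 0.23 by limma. Psmb8 to Psmb10 made up 47.7, 48.4 and 47.5% of the summed mRNA of the 6 proteolytic subunits with vehicle and 45.3, 48.2 and 46.8% with blebbistatin, and these ranges overlapped in blebbistatin 2.

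In the base of the cap, the 6 ATPase mRNAs stayed within narrow limits. Psmc1, the ATPase at the highest level, stood at 319.8, 330.0 and 329 TPM with vehicle and 348, 312 and 350.1 TPM with blebbistatin, with overlap (log2 fold change 0.043). Psmc3 had the largest change, with 209, 216 and 220.0 TPM with vehicle and 198, 198 and 201 TPM with blebbistatin, and the 3 blebbistatin libraries were close to each other and below all vehicle libraries (log2 fold change -0.11 with an SE of 0.045, limma adjusted p = 0.205). Psmc2, Psmc4, Psmc5 and Psmc6 had log2 fold changes of -0.015, -0.044, -0.021 and 0.029, and their groups overlapped. Among the other base subunits, Psmd2, a scaffold that binds substrate shuttle factors, stood at 236, 244 and 243 TPM with vehicle and 242, 235 and 244 TPM with blebbistatin, a log2 fold change of -0.0018 with a 95% interval of -0.11 to 0.10. Psmd4, a ubiquitin receptor, stood at 170.0, 163 and 168 TPM with vehicle and 139.6, 161 and 156 TPM with blebbistatin, and its groups lay apart (log2 fold change -0.13 with an SE of 0.065, limma adjusted p = 0.262). Psmd1, the other scaffold, had a log2 fold change of 0.015. The summed base was 1899, 1909.7 and 1933 TPM with vehicle and 1916, 1833 and 1917 TPM with blebbistatin.

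Lid mRNAs were on balance slightly lower with blebbistatin, and none passed. Of the 8 genes 5 were below 0, beside 44.9% of all tested genes. The lid sum was 1493, 1447 and 1398 TPM with vehicle and 1303, 1395 and 1384 TPM with blebbistatin. Each blebbistatin library lay below each vehicle library, but vehicle 3 and blebbistatin 2 were nearly level. For the whole cap of 17 genes the sums were 3392, 3357 and 3331 TPM against 3219, 3228 and 3301 TPM, also without overlap, a mean difference of -3.29%. Psmd14, the enzyme that cuts ubiquitin off the substrate, was on the other side of 0, with 195, 186 and 187 TPM with vehicle and 215, 194 and 194 TPM with blebbistatin (log2 fold change 0.086). Psmd3, a structural lid subunit, had the largest change of the lid, with 218, 215 and 168 TPM with vehicle and 136, 167 and 186 TPM with blebbistatin. Its vehicle libraries themselves differed, and vehicle 3 lay inside the blebbistatin range (log2 fold change -0.30 with an SE of 0.14, limma adjusted p = 0.247). Psmd8, the lid gene at the highest level, stood at 284, 270.3 and 239.8 TPM with vehicle and 215, 276 and 254 TPM with blebbistatin, with overlap (log2 fold change -0.10). The groups lay apart for Psmd6 (log2 fold change -0.15, 95% interval -0.29 to -0.018) and Psmd7 (-0.11, -0.21 to -0.0062), which are structural subunits, at an adjusted p of 0.183 and 0.199 by limma. Psmd11, Psmd12 and Psmd13 had log2 fold changes of 0.0062, -0.095 and 0.033. The median over the 8 lid genes was -0.10, against -0.018 for the ATPases and 0.069 for the alpha ring.

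**Figure D3:**
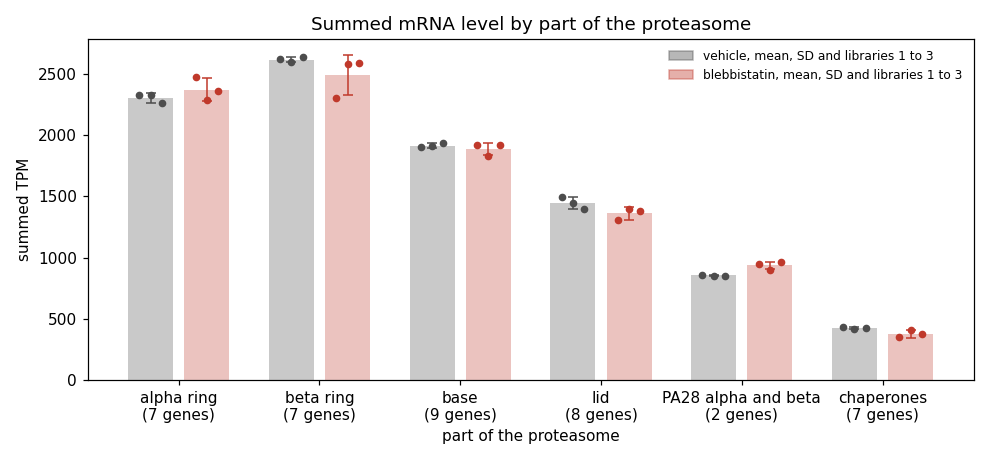
Summed TPM of the genes in each part of the proteasome. Bars are means over 3 libraries, error bars the SD and points libraries 1, 2 and 3 from left to right, in grey for vehicle and red for blebbistatin. The first blebbistatin library is the highest for the alpha ring (2472 TPM) and the lowest for the beta ring (2302 TPM).

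Among the assembly chaperones Psmg4 had the largest difference of all members and also the widest spread. This gene encodes a small chaperone that works with Psmg3 on the alpha ring. It stood at 94.7, 83.8 and 100.9 TPM with vehicle and 42.0, 90.9 and 65.3 TPM with blebbistatin. Blebbistatin 1 and 3 were below every vehicle library, while blebbistatin 2 lay inside the vehicle range (log2 fold change -0.55 with an SE of 0.25, limma adjusted p = 0.236, 95% interval -1.14 to 0.030). Its partner Psmg3 stood at 63.0, 61.8 and 62.2 TPM with vehicle and 51.2, 65.3 and 56.0 TPM with blebbistatin, with the same library lowest and overlap (log2 fold change -0.12). Psmg3 shares 20.3% of its windows with Gm26938, which overlaps it. Psmg1 and Psmg2, which form the other chaperone pair of the alpha ring, had smaller and more uniform differences. Psmg1 stood at 92.1, 84.4 and 86.1 TPM with vehicle and 81.8, 79.9 and 83.0 TPM with blebbistatin (log2 fold change -0.10). Psmg2 had a log2 fold change of -0.10, and for both genes the groups lay apart. Pomp, the maturation factor of the core, is not in the set by its name and stood at 170.3, 174 and 162 TPM with vehicle and 186, 176 and 186 TPM with blebbistatin, apart and higher (log2 fold change 0.11 with an SE of 0.053, limma adjusted p = 0.249). Of the chaperones of the cap base, Psmd10, also known as the oncoprotein gankyrin, stood at 40.5, 44.1 and 42.9 TPM with vehicle and 48.1, 43.2 and 47.3 TPM with blebbistatin (log2 fold change 0.12). Psmd9 stood at 23.0, 27.7 and 28.2 TPM with vehicle and 19.0, 26.0 and 18.4 TPM with blebbistatin, with blebbistatin 2 inside the vehicle range (log2 fold change -0.31 with an SE of 0.14, limma adjusted p = 0.247), and 25.5% of its exon bases overlap Gm26745 on the other strand. Whether the counting used strand is not given in the sources used here, and without it reads of these genes cannot be told apart. Psmd5 had a log2 fold change of -0.16. In sum 6 of the 7 chaperones in the set were below 0, beside 44.9% of all tested genes. The summed level of the 7 was 431, 417 and 428 TPM with vehicle and 349.7, 409 and 372 TPM with blebbistatin. These sums did not overlap. Their means were 425 TPM with vehicle and 377 TPM with blebbistatin, and those of Psmg4 alone 93.2 and 66.1 TPM.

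The activators differed among themselves in direction, and none passed. Psme1 and Psme2 encode the subunits of the interferon-induced PA28 activator and together summed to 858, 853 and 853 TPM with vehicle and 944, 902 and 961 TPM with blebbistatin, a mean difference of 9.50%. Psme2 stood at 468, 465 and 478 TPM with vehicle and 553, 496 and 543 TPM with blebbistatin, with every blebbistatin library above every vehicle library (log2 fold change 0.17 with an SE of 0.054, limma adjusted p = 0.141, 95% interval 0.044 to 0.30). Psme1 stood at 389.7, 387 and 375 TPM with vehicle and 391, 406 and 418 TPM with blebbistatin, also apart but by little (log2 fold change 0.076). Psme2b, an intronless copy of Psme2 on chromosome 11, 48945354 to 48946190 in GRCm38, stood at 16.2, 15.9 and 14.8 TPM with vehicle and 21.7, 22.2 and 19.4 TPM with blebbistatin and came closest of all members to the threshold (log2 fold change 0.41 with an SE of 0.082, limma adjusted p = 0.061). Of its windows of 75 bases, 60.2% occur in the same letters in Psme2, which lies on chromosome 14, 55587441 to 55591113. Conversely, 51.7% of the Psme2 windows occur in Psme2b. A read of 75 bases in such a window would match both genes. How longer fragments were assigned was not tested, and the value of Psme2b is uncertain. Psme3, the nuclear PA28 subunit, stood at 258, 249.6 and 268 TPM with vehicle and 232, 232 and 239 TPM with blebbistatin, with no overlap (log2 fold change -0.14 with an SE of 0.048, limma adjusted p = 0.16). Psme4 encodes the large activator PA200 and stood at 38.0, 38.8 and 38.1 TPM with vehicle and 47.0, 38.9 and 42.2 TPM with blebbistatin. Its groups lay apart, but blebbistatin 2 was only just above the vehicle range (log2 fold change 0.15 with an SE of 0.079, limma adjusted p = 0.299). Psmf1, an inhibitor of the core, stood at 30.1, 25.5 and 33.3 TPM with vehicle and 26.8, 28.4 and 35.9 TPM with blebbistatin, with overlap (log2 fold change 0.029). Psmc3ip, which matches the name rule but encodes a cofactor of homologous recombination, stood at 25.0, 27.7 and 32.3 TPM with vehicle and 26.0, 30.2 and 29.2 TPM with blebbistatin (log2 fold change 0.011).

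Other genes of the ubiquitin and proteasome pathway gave the same count. Their lists covered the immunoproteasome, subunits outside the name rule, proteasome-bound enzymes and receptors, and NRF1 control. They also covered the VCP segregase and ubiquitin with its activating enzymes and some conjugating enzymes. Of 48 tested genes of these lists, 0 were higher and 0 lower by limma. At an unadjusted p under 0.05, 5 were higher and 5 lower, beside 12.9% and 9.99% of all tested genes. Their median log2 fold change was 0.0055. Nfe2l1, which encodes NRF1, stood at 22.7, 20.4 and 13.2 TPM with vehicle and 27.1, 18.4 and 20.1 TPM with blebbistatin, with overlap (log2 fold change 0.23, SE 0.22). Nfe2l2, which encodes the related factor NRF2, stood at 54.8, 60.3 and 56.3 TPM with vehicle and 60.7, 54.3 and 60.6 TPM with blebbistatin (log2 fold change 0.034). Chosen after its values were seen, Adrm1, a ubiquitin receptor of the cap outside the name rule, stood at 113, 113 and 116 TPM with vehicle and 75.3, 105 and 91.5 TPM with blebbistatin (log2 fold change -0.34 with an SE of 0.11, limma adjusted p = 0.153), apart and lower. Syvn1, a ubiquitin ligase of the endoplasmic reticulum chosen in the same way, stood at 35.7, 32.3 and 32.3 TPM with vehicle and 21.3, 29.1 and 20.6 TPM with blebbistatin (log2 fold change -0.50 with an SE of 0.13, limma adjusted p = 0.107), also apart and lower. Without blebbistatin 2 both passed as lower, Adrm1 at -0.45 (adjusted p = 0.0365) and Syvn1 at -0.65 (adjusted p = 0.0165) by limma. In that fit 8.15% of all tested genes passed, 3.71% as higher and 4.44% as lower, beside 1.82% with all 6 libraries. Without blebbistatin 1 neither gene passed, with Adrm1 at -0.21 (adjusted p = 0.179) and Syvn1 at -0.43 (adjusted p = 0.192) by limma. In this second fit 0.897% of all tested genes passed.

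One library and the base composition of the transcripts moved with these differences. Of the 3 blebbistatin libraries, blebbistatin 1 lay farthest from the vehicle mean in 28 of 45 members, among them all 7 alpha ring genes, beside 53.7% of all tested genes. The median distance of a member from the vehicle mean on the log2 scale was 0.13 in blebbistatin 1, 0.053 in blebbistatin 2 and 0.10 in blebbistatin 3. In blebbistatin 1 this difference fell with the GC content of the transcript, with a Pearson r of -0.63 across 45 members and -0.52 across 13317 genes. The r was -0.06 and -0.05 in blebbistatin 2 and -0.36 and -0.27 in blebbistatin 3, while vehicle libraries lay between -0.07 and 0.04. These are correlations across genes of the same libraries, which share depth and base composition, and genes are not independent replicates. The 15 members of lowest GC content, 38.5% to 46.4%, had a median difference of 0.11 in blebbistatin 1, -0.01 in blebbistatin 2 and 0.03 in blebbistatin 3. The 15 of highest GC content, 51.7% to 57.1%, had -0.26, -0.04 and -0.10. Psmg4, Psmb4, Psmb5, Psmd3 and Psmd9 are among the latter, and 4 alpha ring genes are among the former. The median GC content was 45.7% in the alpha ring and 52.2% in the beta ring.

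**Figure D4:**
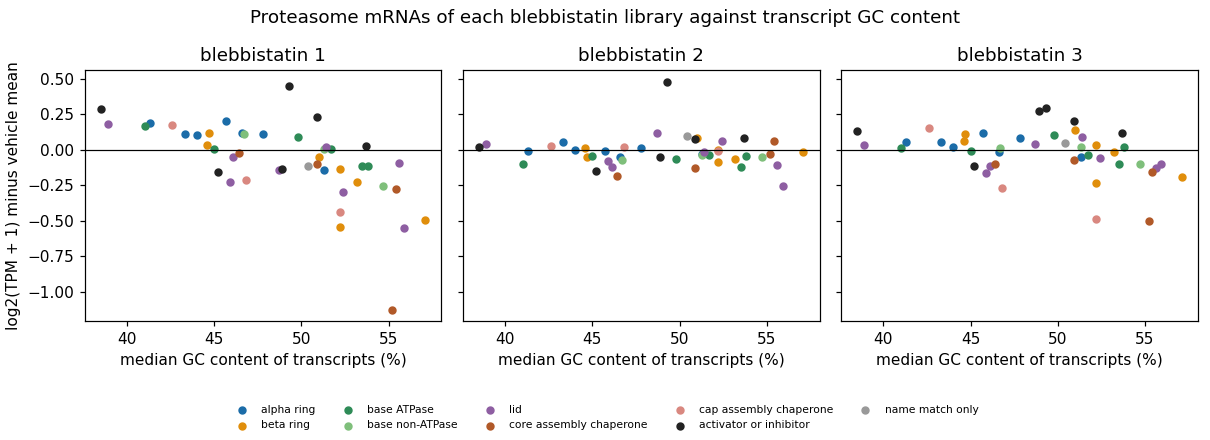
Difference of each of the 45 members from the vehicle mean, in log2(TPM + 1), against the median GC content of its transcripts, for blebbistatin 1, 2 and 3, coloured by role. Points slope down in blebbistatin 1 (r of -0.63), less in blebbistatin 3 (r of -0.36), and lie flat in blebbistatin 2 (r of -0.06).

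Each library was then corrected by loess for the length and the GC content of the transcripts, and the r of the members' fold change with GC content went from -0.50 to -0.11. The correction takes out each library's trend with GC content over all genes, so a fall of this r was built in. A difference between treatments that follows GC content would be taken out with it. After the correction 8 members were above 0 and 37 below, or 82.2% below, beside 51.6% of all genes, in place of 22 and 23. The median of the members was -0.065 and that of all genes -0.0079. The alpha ring and the beta ring had medians of -0.065 and -0.079, in place of 0.069 and -0.033, so that both rings stood on the same side of 0. The values of Psmg4 (-0.50), Psmb4 (-0.29) and Psmd9 (-0.32) changed little, and those of Psmb5 (-0.13) and Psme4 (0.0020) came closer to 0. The length and GC content used were medians over all annotated transcripts of a gene, short ones included. For Psme4 that length was 582 bases, while its longest protein-coding transcript has 6491, so corrected values of such genes are uncertain. Others moved away from 0, among them Psmd6 (-0.24 in place of -0.15), Psme3 (-0.23 in place of -0.14), Psmg2 (-0.18 in place of -0.10) and Psmd12 (-0.19 in place of -0.095). One member then passed, Psme2b, at a log2 fold change of 0.36 and an adjusted p of 0.0499 by limma, where 4.18% of genes passed, 2.4% as higher and 1.78% as lower. Without blebbistatin 2, 3 other members passed, Psme2 as higher (0.22, adjusted p = 0.0358 by limma) and Psmg4 (-0.81, adjusted p = 0.048) and Psmd9 (-0.46, adjusted p = 0.0491) as lower. In that fit 8.15% of all tested genes passed, 3.71% as higher and 4.44% as lower. Without blebbistatin 1, 0 members passed, beside 0.897% of all tested genes (0.666% higher and 0.232% lower). The log2 fold change without it was -0.27 for Psmg4, -0.16 for Psmb4, -0.10 for Psmb5 and -0.18 for Psmd3, each closer to 0 than with all 6 libraries.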

How the data were processed

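Libraries were grouped by their titles, 3 vehicle and 3 blebbistatin, and each is an RNA-seq sample. Per the labels' protocols, TRIzol and chloroform were used for extraction and a TruSeq kit for the libraries. Named per the submitters' processing notes, without their roles, are StringTie 1.3.4, HISAT2 2.1.0, DESeq2 1.22.2 and build mm10. The deposited TPM values total 1000000 per library. FPKM was deposited too and is proportional to TPM within a library. Coverage, a signal also deposited by the authors, was divided by FPKM for the depth estimate, at 5.54 to 5.98 per library.

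The values hold no counts. A gene was tested if its mean reached 1 TPM, by limma 3.58.1 (R 4.3.3) on log2(TPM + 1), using eBayes with a trend and a Benjamini-Hochberg adjusted p under 0.05. The pseudocount of 1 understates the change of low genes. The test was checked on simulated data. The members and lists were chosen with earlier results of these data known. Values in each library are given for the highest and the most changed member of each role and for fixed proteolytic, activator and context genes; others were chosen after their values were seen. The authors' annotation release is not given in the sources used here. GENCODE M21 of GRCm38 gave positions, lengths and GC content, with a length for 99.6% of tested genes. For some members, Psmb5 and Psmg4 among them, its position differed from the one deposited with the values. Promoter sequences came from RefSeq. Plots used Python 3.11.15 and matplotlib 3.10.9.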

Additional observations from a re-analysis of the deposited data

How the results depend on the processing

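The count of 0 members in each direction was kept with a pseudocount of 0.1 or 5, with no minimum level or one of 5 TPM, on FPKM, with median-ratio or quantile scaling, with no trend, with robust moderation and with the replicate block. It became 1 higher and 0 lower after the length and GC correction, and 0 in both directions with that correction and the block. Leaving out each library gave 0 to 1 higher and 0 to 2 lower. Over all genes 187 passed as higher and 57 as lower. The counts were 40 and 9 with no minimum level, 23 lower with no trend, and 320 and 237 after the length and GC correction. With the replicate block they were 0 and 0, also with that correction. With 1 library left out they ran from 3 to 496 higher and from 0 to 594 lower. Replicate numbers were shared by the groups but same-numbered libraries did not deviate together (correlations of 0.01, -0.04 and -0.03), so the numbers were not taken as pairs, and the lost calls under the block are not a weaker effect.

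Role medians that moved by more than the spread between replicates were those of the ATPases (-0.049 with median-ratio and 0.024 with quantile scaling), the other base subunits (-0.032 and 0.049) and the lid (-0.056 with quantile scaling). After the length and GC correction, with or without the replicate block, the alpha ring was at -0.065, the ATPases at -0.064, the other base subunits at -0.067 and the activators at 0.051. With 1 library left out the lid ran from -0.11 to -0.048 and the other base subunits from -0.032 to 0.014. Median-ratio scaling left 16 members above 0 and quantile scaling 27, in place of 22. Changes of sign, all in genes that did not pass, were as follows. On FPKM it was Psmd11 -0.0005. With median-ratio scaling these were Psmd11 -0.024, Psmc3ip -0.018, Psmd1 -0.015, Psma4 -0.014, Psmc6 -0.0014, Psmf1 -0.0009. With quantile scaling these were Psmc4 0.0027, Psmc5 0.0094, Psmb3 0.012, Psmb9 0.031, Psmc2 0.039, Psmd2 0.049. After the length and GC correction, with or without the replicate block, these were Psmc6 -0.11, Psmb1 -0.079, Nfe2l2 -0.078, Psma2 -0.074, Psmd1 -0.067, Psma1 -0.066, Psma4 -0.065, Psmd14 -0.056, Psmd11 -0.054, Psmb7 -0.054, Psmf1 -0.043, Psma3 -0.037, Psmc3ip -0.022, Psmd10 -0.014, Psmc1 -0.0045, Psmb9 0.054. With 1 library left out the range was Psma4 -0.034 to 0.051, Psmb3 -0.068 to 0.018, Psmb9 -0.056 to 0.10, Psmc2 -0.025 to 0.0000, Psmc3ip -0.072 to 0.11, Psmc6 -0.041 to 0.092, Psmd1 -0.032 to 0.060, Psmd11 -0.051 to 0.081, Psmd13 -0.020 to 0.063, Psmd2 -0.016 to 0.014, Psmd8 -0.18 to 0.0021, Psmf1 -0.094 to 0.11. The cause of these changes was not tested. Depth is not known from counts, and members below 1 TPM could not be compared.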

Other observations

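The ratio of deposited coverage to FPKM differed among members. It was at the value of the whole library, 5.54 to 5.98, for Psma2, Psmb1, Psmb5, Psmc1, Psmc6, Psmd7, Psmg2 and Psme2b. It was lowest for Psmd14, at 0.155 to 0.168 over the 6 libraries, and Psma6, at 0.598 to 0.643. The level of these genes against other subunits thus differs between the deposited columns, and the cause was not tested.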
